A study of Mus musculus with 12 samples.

Results

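The translation factors of the mouse hypothalamus were taken from the deposited gene table as the symbols that begin with Eif, Eef, Etf1 or Gspt. Eif2ak3, Eif2s3x, Eif2s3y, repeated-symbol lines and pseudogene symbols were left out. This gave 67 of the 24020 genes in the table, and 62 of them had enough counts to be tested. Selection used the symbol alone and no measured value, although this group of genes was chosen with earlier results of these data known. The prefix also takes in 4 Argonaute genes under their older symbols (Eif2c1 to Eif2c4), which act in microRNA silencing and are described apart.

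Whole-transcriptome libraries were made from the hypothalamus of mice of the strain Wfs1tm1Koks, in which Wfs1 is mutated, the gene for the endoplasmic reticulum protein wolframin. There were 4 wild-type mice, 4 heterozygous mice with 1 mutant copy and 4 homozygous mice with both copies mutated, and the labels give no treatment, age or sex. The wild-type libraries are numbered 1, 2, 3 and 5, the heterozygous 1 to 4 and the homozygous 1, 2, 4 and 5, and values are given in that order throughout. These are the numbers of the table's columns: the homozygous sample titles run from 1 to 4, so column 5 was used as a homozygous replicate with no title of its own, and the title numbered 3 was matched to no column. The labels call the 12 samples individuals, so p-values measure the spread between these mice. The growth protocol mentions more animals for the hypothalamus than the 4 per genotype of the design, and the design was followed. Genotype is compared across the whole dissected tissue, where fewer cells of a type and less RNA per cell cannot be told apart.

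Protein synthesis starts when eIF2, loaded with GTP and the initiator tRNA, joins the small ribosomal subunit together with eIF1, eIF1A, eIF5 and the multi-subunit eIF3. The eIF4F complex (the cap-binding protein eIF4E, the scaffold eIF4G and the helicase eIF4A) brings this assembly to the messenger RNA, and eIF5B then joins the large subunit at the start codon. Elongation factors eEF1A and eEF2 deliver the charged tRNAs and move the ribosome, and eRF1 (Etf1) with eRF3 (Gspt1, Gspt2) ends the chain. Under stress, kinases phosphorylate eIF2 and thereby block eIF2B, which lowers general initiation. The eIF2 kinase that senses stress of the endoplasmic reticulum is encoded by Eif2ak3 and is not among the genes described here.

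The transcripts of these factors differ in base composition, and the A-rich coding stretches of some of the genes that rose are shown here because the changes ran along that axis. Each line is the 60-base window with the most A within a single coding exon, 5′ to 3′ on the coding strand, read from GENCODE M21 on build GRCm38 (mm10), and capitals mark runs of 4 or more A. The Eif5b window lies in exon 5 of 24 at chr1:38021607-38021666 on the plus strand. The Eif2s2 window lies in exon 4 of 9 at chr2:154884318-154884377 on the minus strand, and the Eif3a window in exon 16 of 22 at chr19:60769898-60769957 on the minus strand. For contrast, the Eef1a2 window lies in exon 3 of 8 at chr2:181153674-181153733 and the Eif3h window in exon 6 of 8 at chr15:51789999-51790058, both on the minus strand and both from genes that fell.
Eif5b: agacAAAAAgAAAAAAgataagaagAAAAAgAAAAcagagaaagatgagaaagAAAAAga
Eif2s2: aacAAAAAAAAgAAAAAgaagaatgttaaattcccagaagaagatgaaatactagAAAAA
Eif3a: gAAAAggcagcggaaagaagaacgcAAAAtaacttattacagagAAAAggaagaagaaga
Eef1a2: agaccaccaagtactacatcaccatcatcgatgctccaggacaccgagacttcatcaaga
Eif3h: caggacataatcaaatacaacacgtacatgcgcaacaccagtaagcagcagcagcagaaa
The Eif5b window is 71.7% A, which was the highest value among the 62 tested members, and that of Eif2s2 is 63.3% A. The windows of Eif3a, Eif3h and Eef1a2 are 55%, 45% and 35% A. The median over the tested members was 45%. It was 53.3% (41.7 to 71.7%) over the 11 members that were higher in homozygous mice. Over the 4 that were lower it was 45.8% (35 to 50%), and over the 47 not called 43.3% (30 to 56.7%). The windows of Eif1ax and Eif2c2, which also fell, are 46.7% and 50% A. A relation between these windows and the change was not tested.

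Libraries held 979394 to 2330872 counts, and the 67 members together took 0.715 to 0.882% of them. Wfs1 checked the labels: it stood at 114 to 167 CPM (counts relative to the library's total, scaled with the TMM factors of edgeR) in wild-type, 81.8 to 103 CPM in heterozygous and 14.8 to 20.1 CPM in homozygous libraries, with no overlap between genotypes. Homozygous replicates 4 and 5 stood apart from the rest. A composition score, the slope of each library's expression deviations on transcript GC content over 10564 other genes, was -4.88 and -5.36 in these libraries, -0.276 and 0.190 in homozygous replicates 1 and 2, and -0.103 to 3.38 in the other 8. The ribosomal RNA precursor Rn45s stood at 95.6 and 85.8 CPM in the same 2 libraries, at 316 and 352 CPM in homozygous replicates 1 and 2, at 352 to 788 CPM in heterozygous and at 958 to 1983 CPM in wild-type libraries. Results that rest on homozygous replicates 4 and 5 are therefore also given without them. Hypothalamic marker genes (10, among them Avp, Oxt and Pmch) summed to 1024 to 1420 CPM in wild-type, 1105 to 1721 in heterozygous and 1233 to 1580 in homozygous libraries, while the pituitary hormone genes Gh and Prl were at 0 in all 12. Neuron markers (5 genes) summed to 3903 to 5010 CPM in wild-type and 4918 to 7123 CPM in homozygous libraries. Called higher were 2 of 5, against 13.7% of all genes tested. Oligodendrocyte markers (7 genes) summed to 2973 to 3798 and 1767 to 3087 CPM, with 1 of 7 called lower, against 11.6% of all genes tested. The part of these shifts in the members' changes was not tested.

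In wild-type hypothalamus the factors differed widely in level per transcript length. Eef2, the translocation factor, was highest at 195 ± 36.7 CPM per kilobase (SD, n = 4), followed by the helicase gene Eif4a2 at 183 ± 34.0 and Eif4g2 at 146 ± 17.5 CPM per kilobase. Eef2 and Eif4a2 did not differ beyond their spread. Eef2 has 3 pseudogene copies at 90% identity or more, Eif4a2 has 2, Eef1a1 has 18 and Eif1 has 20. The order of the members by level may therefore depend on read assignment. The value for Eif4g2 rests on a 7995-base transcript and would be higher with a shorter annotated form. Eif3a was at 107 ± 24.5 and Eif4b at 103 ± 5.40 CPM per kilobase, and these neighbours also lay within their spread. At the other end, the kinase genes Eif2ak2 and Eef2k were at 2.99 ± 0.471 and 2.52 ± 0.480 CPM per kilobase. The 5 untested members were Eif3j, Eif4ebp1, Eif4ebp3, Eef1g and Eif4e1b, with 2, 9, 34, 86 and 0 counts over the 12 libraries. For Eif3j (now Eif3j1) copies were sought only among pseudogenes and the other members. Whether its 2 counts depend on read assignment was not tested. Eef1g, a subunit of the exchange factor for eEF1A, has 5 processed copies in the genome at 90% identity or more, and its low count may therefore depend on how reads were assigned between copies.

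Between homozygous and wild-type mice, 11 of the 62 tested members were higher and 4 were lower (edgeR, Benjamini-Hochberg adjusted p below 0.05 across the genes tested). The 15 called members are 24.2% of those tested, and 25.4% of all 10737 genes tested were called in this comparison (13.7% higher, 11.6% lower), so the members were called about as often as genes in general. Of the calls over all genes 54.2% were higher, and with upper-quartile in place of TMM scaling 44.0% were, with 9 members higher and 7 lower. The median log2 fold change was -0.00 over the members and -0.03 over all genes, and 31 of the 62 members had a positive value. The libraries of the 2 genotypes did not overlap for 20 of the 62 members, against 23.6% of all genes tested. Of the 43 tested members grouped by symbol under initiation, the eIF2 kinases among them, 11 rose (25.6%) and 2 fell. Of the 11, 3 act in scanning and start codon recognition, 2 encode eIF2 subunits, 1 encodes an eIF2 kinase, 3 encode eIF3 subunits and 2 belong to the cap-binding group. Of the 13 tested members grouped by symbol under elongation and release, the kinase gene Eef2k among them, none rose and 1 fell by this edgeR test. The difference between these groups was not tested. The 4 members that fell were Eif1ax, Eif3h, Eef1a2 and Eif2c2.

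**Figure D1:**
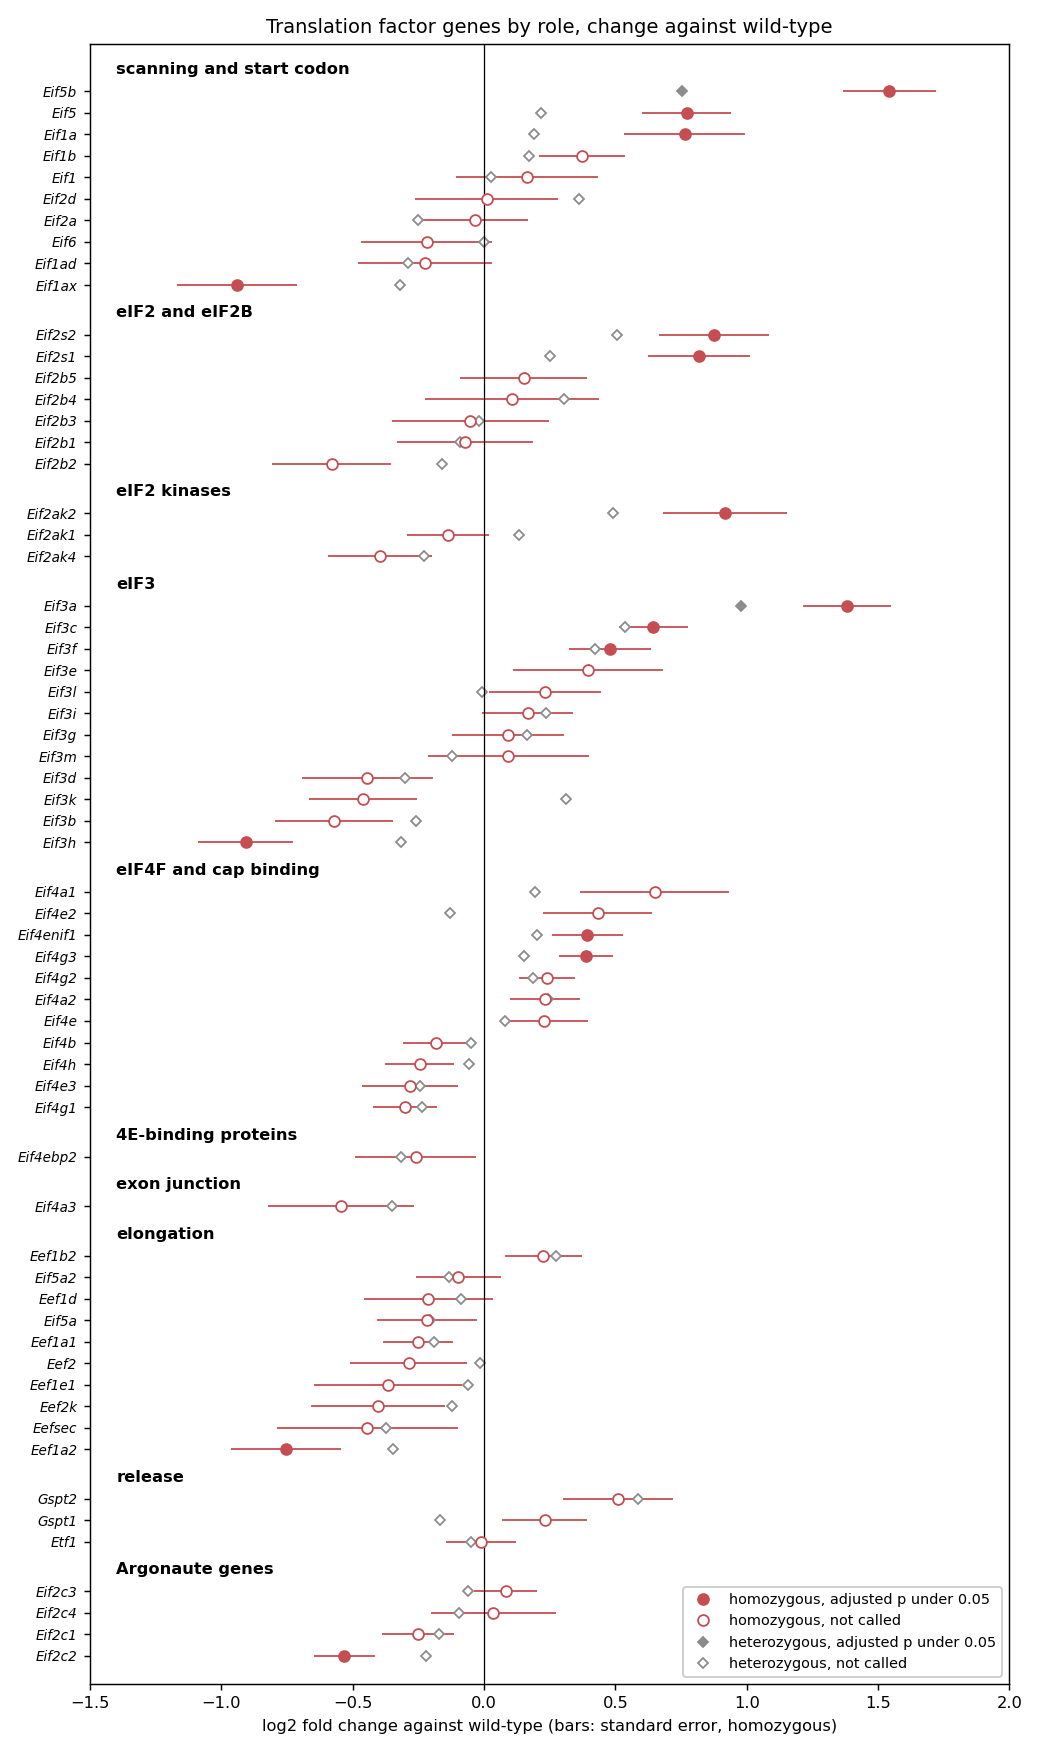
Log2 fold change against wild-type (x axis) for the 62 tested members, grouped by role; circles with standard error bars are homozygous mice, diamonds heterozygous mice, and filled symbols passed an adjusted p of 0.05. Of the homozygous values 11 filled circles lie to the right of 0 and 4 to the left, with Eif5b (1.54) and Eif3a (1.38) farthest right.

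Among the scanning and start codon genes, Eif5b had the largest rise of all members. Its wild-type libraries held 212, 196, 190 and 272 CPM, against 312, 238, 464 and 463 CPM in the heterozygous and 586, 532, 726 and 703 CPM in the homozygous libraries. Every homozygous library was above every heterozygous library, and 3 of the 4 heterozygous libraries were above every wild-type library. The rise in homozygous mice was 2.91-fold (log2 fold change 1.54, SE 0.177, edgeR adjusted p = 3.9e-06). It remained at a log2 fold change of 1.36 without homozygous replicates 4 and 5 (adjusted p = 9.51e-07). With the composition score as a covariate it was 1.14 (adjusted p = 0.000309).

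Eif5, the GTPase-activating protein of eIF2, was at 220, 146, 145 and 158 CPM in wild-type, at 222, 196, 155 and 204 CPM in heterozygous and at 229, 224, 325 and 374 CPM in homozygous libraries. All homozygous libraries were above all wild-type libraries, but homozygous replicates 1 and 2 only narrowly exceeded wild-type replicate 1. The log2 fold change was 0.77 (SE 0.169, edgeR adjusted p = 0.00205). In the fit without homozygous replicates 4 and 5 it was 0.44 and no longer passed the test (adjusted p = 0.0513). Eif5 has 4 pseudogene copies at 90% identity or more, so its count may depend on read assignment.

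Eif1a and Eif1ax encode near-identical forms of eIF1A, which helps the scanning ribosome find the start codon, and they moved in opposite directions. Eif1a was at 60.1, 37.1, 48.1 and 48.5 CPM in wild-type, at 72.6, 50.1, 54.2 and 46.6 in heterozygous and at 55, 57.5, 112 and 116 CPM in homozygous libraries (log2 fold change 0.76, SE 0.230, edgeR adjusted p = 0.0175). Homozygous replicates 1 and 2 lay within the wild-type range and replicates 4 and 5 far above it. The Eif1a call was lost without wild-type replicate 2 (adjusted p = 0.0569), homozygous replicate 4 (0.0806) or homozygous replicate 5 (0.0670), and the log2 fold change was 0.21 without both of the latter. Eif1ax was at 35.2, 28.5, 42.3 and 47.9 CPM in wild-type, at 23.8, 42.1, 23.4 and 32.8 in heterozygous and at 22.8, 18.9, 17.3 and 22.6 CPM in homozygous libraries. Every homozygous library was below every wild-type library, and the fall was 1.92-fold (log2 fold change -0.94, SE 0.230, edgeR adjusted p = 0.00455). It was -0.91 without homozygous replicates 4 and 5 (adjusted p = 0.0178). Of the counts of both genes together, Eif1ax took 36.9 to 49.7% in wild-type and 13.4 to 29.3% in homozygous libraries, with no overlap. The transcripts are 84.4% identical over 461 bases. Eif1a also has 4 pseudogene copies and Eif1ax has 1, so the split of reads between them may depend on the counting. Eif1 and Eif1b, which keep start codon selection strict, were not called (log2 fold changes 0.16 and 0.37, edgeR adjusted p = 0.696 and 0.0982).

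Genes of eIF2, which carries the initiator tRNA, rose for both subunits tested. Eif2s1, the alpha subunit that the stress kinases phosphorylate, was at 33.7, 40.0, 33.5 and 28 CPM in wild-type, at 45.6, 32.5, 30.0 and 51.8 in heterozygous and at 63.7, 49.8, 66.7 and 57.6 CPM in homozygous libraries. All homozygous libraries were above all wild-type libraries, with a 1.76-fold rise (log2 fold change 0.82, SE 0.194, edgeR adjusted p = 0.00374). Eif2s2, the beta subunit, was at 13.2, 23.8, 18.9 and 28 CPM in wild-type, at 30.9, 30.4, 32.2 and 26.3 in heterozygous and at 38.9, 42.2, 36.2 and 36.1 CPM in homozygous libraries. Its homozygous libraries were above all of the other 8, and the rise was 1.84-fold (log2 fold change 0.88, SE 0.209, edgeR adjusted p = 0.00389). The log2 fold changes without homozygous replicates 4 and 5 were 0.75 for Eif2s1 and 0.95 for Eif2s2 (adjusted p = 0.0182 and 0.00614). Per transcript length, Eif2s1 and Eif2s2 were at 9.93 and 8.25 CPM per kilobase in wild-type tissue. Eif2s1 has 5 pseudogene copies and Eif2s2 has 1, so their counts may depend on read assignment. None of the 5 genes of eIF2B, the exchange factor that reloads eIF2 with GTP, was called: their log2 fold changes ran from -0.58 (Eif2b2, edgeR adjusted p = 0.0640) to 0.15 (Eif2b5).

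Of the 3 eIF2 kinase genes tested, Eif2ak2 rose. This kinase (PKR) is activated by double-stranded RNA. Eif2ak2 was at 11.7, 13.3, 10.9 and 15.5 CPM in wild-type, at 18.6, 15, 19.8 and 20.3 in heterozygous and at 26.8, 23.3, 28.8 and 18.1 CPM in homozygous libraries, and the homozygous and wild-type ranges did not overlap. The rise was 1.89-fold (log2 fold change 0.92, SE 0.235, edgeR adjusted p = 0.00643), with the 12 libraries holding 336 counts in all. The amino acid sensor Eif2ak4 (GCN2) had a log2 fold change of -0.40 (adjusted p = 0.147) and the haem-regulated Eif2ak1 one of -0.14 (adjusted p = 0.554).

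The 12 tested subunits of eIF3, the largest initiation factor and a platform for the other factors, did not move together: 3 rose, 1 fell and the median log2 fold change was 0.13. Eif3a, the largest subunit, was at 467, 458, 538 and 728 CPM in wild-type, at 923, 754, 1409 and 1247 in heterozygous and at 1658, 1403, 1351 and 1306 CPM in homozygous libraries. All 8 mutant libraries were above all 4 wild-type libraries, and the rise in homozygous mice was 2.61-fold (log2 fold change 1.38, SE 0.167, edgeR adjusted p = 7.4e-06). Unlike the rise of Eif1a, it was as large without homozygous replicates 4 and 5 (1.48, adjusted p = 1.11e-07) and with the composition score as a covariate (1.46, adjusted p = 2.34e-05). Eif3c, another core subunit, was at 139, 148, 165 and 209 CPM in wild-type, at 226, 214, 270 and 257 in heterozygous and at 250, 251, 270 and 269 CPM in homozygous libraries (log2 fold change 0.64, SE 0.132, edgeR adjusted p = 0.00119). Here too every mutant library was above every wild-type library. Eif3c has 1 pseudogene copy, so its count may depend on read assignment.

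Eif3f rose by 0.48 on the log2 scale (SE 0.156, edgeR adjusted p = 0.0264), from 90.9, 57.1, 103 and 82.1 CPM in wild-type to 108, 121, 110 and 130 CPM in homozygous libraries. This call was lost without wild-type replicate 2 (adjusted p = 0.0952), wild-type replicate 5 (0.0545) or homozygous replicate 5 (0.0615), and without homozygous replicates 4 and 5 together (0.46, adjusted p = 0.0702). Eif3h was at 48.4, 54.2, 53.9 and 40.4 CPM in wild-type, at 34.7, 44.6, 42.5 and 34.8 in heterozygous and at 30.2, 25.1, 24.7 and 23.7 CPM in homozygous libraries. All homozygous libraries were below all of the other 8, and the fall was 1.88-fold (log2 fold change -0.91, SE 0.181, edgeR adjusted p = 0.000986). The fall of Eif3h was -0.83 without homozygous replicates 4 and 5 (adjusted p = 0.00884). The other 8 subunits ran from -0.57 (Eif3b, edgeR adjusted p = 0.0648) to 0.40 (Eif3e, adjusted p = 0.323). Per transcript length the subunits also differed in wild-type tissue, from 8.29 CPM per kilobase for Eif3e to 107 for Eif3a, although they enter the complex together. Eif3e has 4 pseudogene copies, so the low end of this range may depend on read assignment. Eif3f and Eif3h have 1 such copy each, and their counts may depend on it too.

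**Figure D2:**
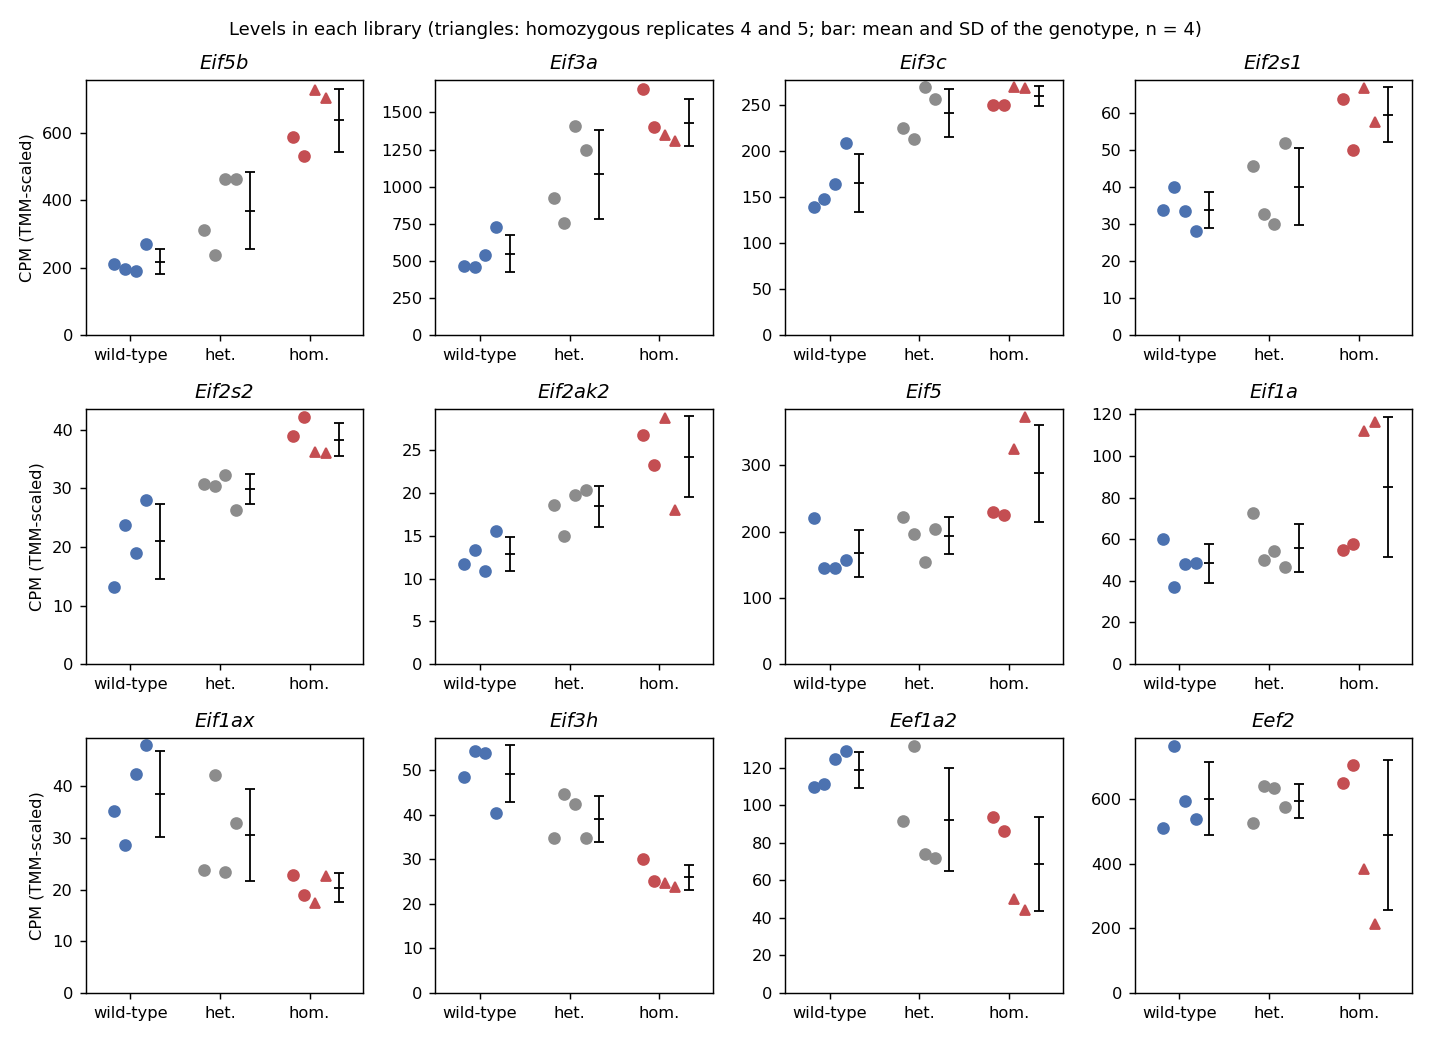
CPM (y axis, TMM-scaled, from 0) of 12 members in each of the 12 libraries, by genotype; triangles are homozygous replicates 4 and 5, and black bars are the mean and SD of each genotype (n = 4). Eif3a and Eif3c are above the wild-type range in all 8 mutant libraries, whereas the homozygous libraries of Eif1a and Eef2 leave the wild-type range only in the triangles.

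In the cap-binding group, 2 of 11 tested genes rose and none fell, and the median log2 fold change was 0.23. Eif4g3, a scaffold of eIF4F, was at 368, 414, 358 and 365 CPM in wild-type, at 405, 413, 445 and 409 in heterozygous and at 480, 504, 514 and 469 CPM in homozygous libraries. The homozygous libraries were above all of the other 8, by a small margin (log2 fold change 0.39, SE 0.103, edgeR adjusted p = 0.00789). Eif4enif1, whose product carries eIF4E between nucleus and cytoplasm, was at 79.9, 97.0, 83.8 and 90.1 CPM in wild-type and at 101, 125, 113 and 122 CPM in homozygous libraries (log2 fold change 0.39, SE 0.134, edgeR adjusted p = 0.0339). Its call was lost without wild-type replicate 1 (adjusted p = 0.0833), 3 (0.0842) or 5 (0.0515) and without homozygous replicate 2 (0.0775), 4 (0.0570) or 5 (0.0697). It was 0.38 without homozygous replicates 4 and 5 together (adjusted p = 0.102).

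The related scaffolds did not pass the test. Eif4g1, the main eIF4G, was at 203, 206, 248 and 232 CPM in wild-type and at 188, 193, 168 and 172 CPM in homozygous libraries (log2 fold change -0.30, edgeR adjusted p = 0.0744). Those ranges did not overlap, and the gene was called with upper-quartile scaling (-0.37, adjusted p = 0.0300). Eif4g2, which lacks the eIF4E site and serves cap-independent initiation, had 1250, 1279, 969 and 1158 CPM in wild-type and 1327, 1288, 1347 and 1538 CPM in homozygous libraries (0.24, edgeR adjusted p = 0.101). For the cap-binding proteins themselves, log2 fold changes were 0.23 for Eif4e, 0.43 for Eif4e2 and -0.28 for Eif4e3 (edgeR adjusted p = 0.338, 0.131 and 0.274). Of the helicase genes, Eif4a2 took 95.2 to 97.9% of the counts of Eif4a1 and Eif4a2 together in wild-type and 94.4 to 96.4% in homozygous libraries. Eif4a1 has 4 pseudogene copies and Eif4a2 has 2, so this share may depend on read assignment. Log2 fold changes were 0.23 and 0.65 for Eif4a2 and Eif4a1 (edgeR adjusted p = 0.214 and 0.0946). The helicase cofactors Eif4b and Eif4h were at -0.18 and -0.24 (adjusted p = 0.303 and 0.175).

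The tested genes of the eIF4E-binding proteins and of the exon junction complex, 1 each, were not called. Eif4ebp2, the main eIF4E-binding repressor of brain, was at 39.6, 55.2, 37.2 and 31.1 CPM in wild-type and at 43.6, 38.2, 30.5 and 16.9 CPM in homozygous libraries (log2 fold change -0.26, edgeR adjusted p = 0.430). Those ranges overlapped. Eif4a3, a helicase of the exon junction complex, was at 11, 16.2, 18.2 and 14.9 CPM in wild-type and at 12.1, 8.53, 9.06 and 12.4 CPM in homozygous libraries (-0.54, edgeR adjusted p = 0.157).

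Elongation genes stood on the low side, and only Eef1a2 passed the test. Of the 10 tested, grouped by symbol and with the kinase gene Eef2k among them, 9 had a log2 fold change below 0 and the median was -0.27. Eef1a2, the form of eEF1A used by mature neurons and muscle, was at 110, 111, 125 and 129 CPM in wild-type, at 91.9, 132, 74.0 and 72.2 in heterozygous and at 93.9, 86.2, 50.3 and 44.0 CPM in homozygous libraries. All homozygous libraries were below all wild-type libraries, and replicates 4 and 5 were the lowest of the 12. The fall was 1.69-fold (log2 fold change -0.75, SE 0.209, edgeR adjusted p = 0.0109). Without homozygous replicates 4 and 5 it was -0.40 and did not pass (adjusted p = 0.147), and with the composition score as a covariate it was -0.06 (adjusted p = 0.910). Its partner Eef1a1, the form of most other cells, was at 105, 125, 125 and 134 CPM in wild-type and at 112, 102, 88.1 and 108 CPM in homozygous libraries (-0.25, edgeR adjusted p = 0.174). Eef1a2 took 47.2 to 51.2% of the counts of the pair in wild-type, 45.6 and 45.8% in homozygous replicates 1 and 2, and 36.3 and 28.9% in replicates 4 and 5. Eef1a1 has 18 pseudogene copies and is 80.5% identical to Eef1a2 over 1385 bases, so this share may depend on read assignment.

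Eef2 shows the same 2 libraries more sharply. It was at 510, 763, 595 and 539 CPM in wild-type, at 527, 640, 634 and 575 in heterozygous and at 651, 705, 383 and 212 CPM in homozygous libraries. Replicates 1 and 2 lay within the wild-type range, and replicates 4 and 5 were the lowest of the 12. The gene was not called (log2 fold change -0.29, SE 0.223, edgeR adjusted p = 0.365), and without replicates 4 and 5 its value was 0.18 (adjusted p = 0.405). As a group, elongation genes took 0.120 ± 0.00901% of counts in wild-type libraries (SD, n = 4), 0.112 and 0.112% in homozygous replicates 1 and 2, and 0.0735 and 0.0595% in replicates 4 and 5. The hypusine-bearing eIF5A, which helps ribosomes past difficult peptide bonds, is encoded by Eif5a and Eif5a2: their log2 fold changes were -0.22 and -0.10 (edgeR adjusted p = 0.423 and 0.698).

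None of the 3 release factor genes was called. Etf1, which reads all stop codons, was at 84.3, 86.6, 91.1 and 90.8 CPM in wild-type and at 92.5, 79.5, 88.1 and 91.4 CPM in homozygous libraries (log2 fold change -0.01, SE 0.133, edgeR adjusted p = 0.958). Its GTPase partners had log2 fold changes of 0.23 for Gspt1 and 0.51 for Gspt2 (edgeR adjusted p = 0.312 and 0.0770). Gspt2 was at 28.6, 37.1, 48.1 and 65.3 CPM in wild-type and at 79.8, 52.5, 60.1 and 67.7 CPM in homozygous libraries, and these ranges overlapped.

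Of the 4 Argonaute genes, Eif2c2 (now Ago2), the Argonaute with slicing activity, fell. It was at 237, 253, 259 and 211 CPM in wild-type, at 204, 217, 201 and 200 in heterozygous and at 179, 171, 164 and 146 CPM in homozygous libraries. The homozygous libraries were below all of the other 8 (log2 fold change -0.53, SE 0.116, edgeR adjusted p = 0.00206), and the value was -0.45 without homozygous replicates 4 and 5 (adjusted p = 0.0213). Eif2c2 has 2 pseudogene copies, so its count may depend on read assignment. The values of Eif2c1, Eif2c3 and Eif2c4 were -0.25, 0.08 and 0.04 (edgeR adjusted p = 0.188, 0.657 and 0.929).

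Direction of change followed the base composition of the transcript, among the members as among all genes. Of 18 members with less than 45% GC, 7 rose and 1 fell. Of 35 with 45 to 55% GC, 4 rose and 2 fell, and of 9 with 55% GC or more none rose and 1 fell. Median GC content was 43.9% for members that rose, 50.1% for those that fell and 50.6% for those not called, against 49.7% over all genes tested with a transcript match. Across the 62 members, the log2 fold change from wild-type to homozygous mice had a Pearson r of -0.46 (Spearman rho -0.49) with transcript GC content and 0.60 (rho 0.56) with A content. Across all 10626 matched genes, r was -0.47 with GC and 0.52 with A content. Genes of the same libraries are not independent replicates, so these are descriptions. Without homozygous replicates 4 and 5, the r with GC content was -0.24 over the members and -0.27 over 11210 genes. With A content it was then 0.42 and 0.35. From wild-type to heterozygous mice, r over the members was -0.31 with GC and 0.49 with A content. Over the 10626 genes it was -0.23 and 0.32. Both comparisons use the same wild-type libraries. Eif1ax went against this order in homozygous mice, with 39.7% GC and a fall.

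**Figure D3:**
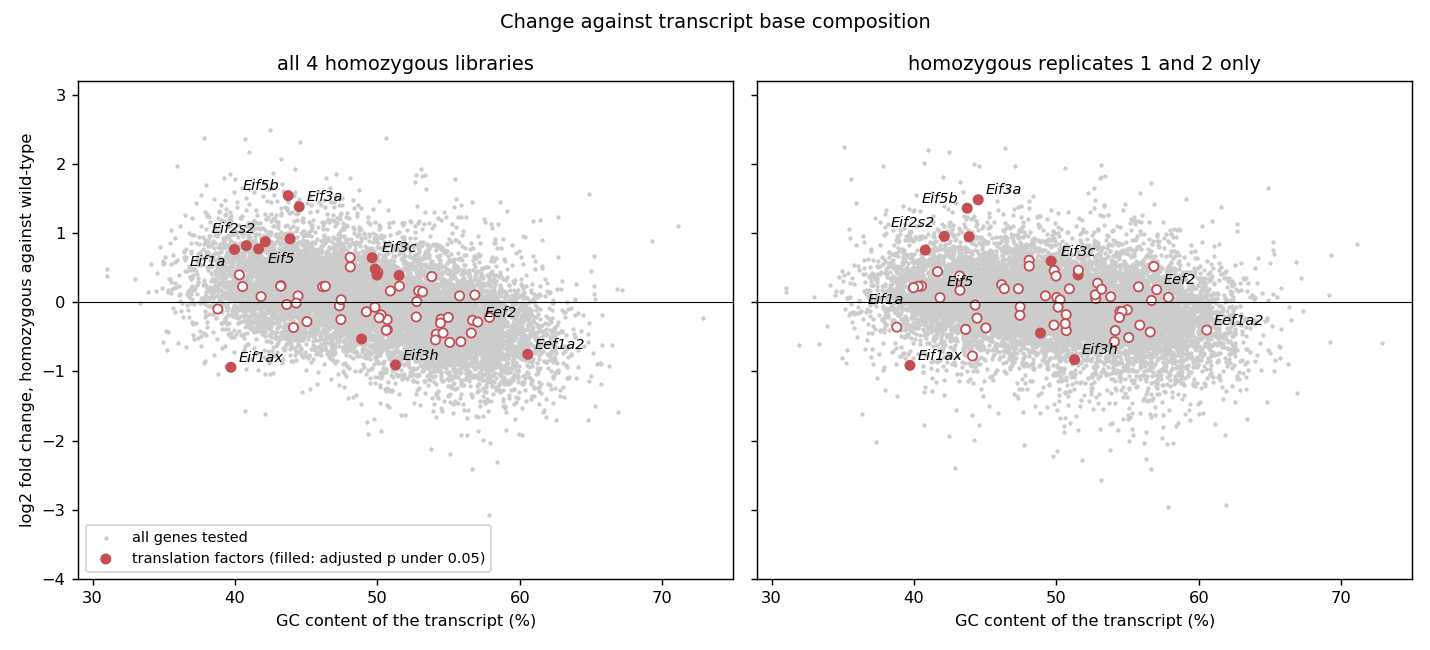
Change from wild-type to homozygous mice on the log2 scale (y axis) against the GC content of the transcript in percent (x axis), with all 4 homozygous libraries (left) and with replicates 1 and 2 only (right); grey points are all genes tested, red circles the members, filled where the adjusted p was under 0.05. Eif5b and Eif3a stay above 1 in both panels, while Eif1a moves from 0.76 to 0.21 and Eef2 from -0.29 to 0.18.

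With homozygous replicates 4 and 5 left out, the comparison with wild-type called 7 members higher and 3 lower, where 11.9% of 11335 genes were called (7.15% higher, 4.71% lower). The 10 were all among the 15: Eif5b, Eif3a, Eif3c, Eif2s1, Eif2s2, Eif2ak2 and Eif4g3 remained higher and Eif1ax, Eif3h and Eif2c2 remained lower. With the composition score as a covariate, 5 members were called higher and none lower, against 4.41% of all genes (3.28% higher, 1.14% lower). Of the 15, Eif5b, Eif3a, Eif3c and Eif2s2 stayed called, and Eif4a2 was added (log2 fold change 0.56, edgeR adjusted p = 0.0210). The score and the genotype overlap in part, so this fit also removes change that goes with genotype.

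Heterozygous mice, with 1 mutant copy, showed 2 of the 62 members called against wild-type, Eif5b and Eif3a, both higher. That is 3.23% of the members, against 0.596% of all genes tested (0.512% higher, 0.0838% lower). By unadjusted p under 0.05 there were 6 of the 62 members, against 1520 of all 10737 genes tested. Eif3a rose by 0.98 on the log2 scale (SE 0.165, edgeR adjusted p = 0.0071) and Eif5b by 0.75 (SE 0.176, adjusted p = 0.0473). Eif3c had a log2 fold change of 0.54 (SE 0.131, edgeR adjusted p = 0.0567) and was called with DESeq2 (adjusted p = 0.0073). The heterozygous and wild-type libraries did not overlap for 2 members, Eif3a and Eif3c, against 9.34% of all genes tested. The comparison shares its wild-type libraries with the one above, so the sides of the 2 sets of values are not independent.

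Neither heterozygous call held under each omission of a library. Eif5b lost it without wild-type replicate 1 (adjusted p = 0.140), 2 (0.167) or 3 (0.190) and without heterozygous replicate 1 (0.0766), 3 (0.247) or 4 (0.241). Eif3a lost it without wild-type replicate 2 (0.0555) or 3 (0.0676) and without heterozygous replicate 3 (0.0725) or 4 (0.0575), while its log2 fold change stayed between 0.83 and 1.16. Without homozygous replicates 4 and 5 in the fit, Eif5b, Eif3a and Eif3c were all called (edgeR adjusted p = 0.0024, 6.11e-05 and 0.00816), where 3.79% of all genes were (2.63% higher). Adding the composition score to the fit left these 3 called (adjusted p = 0.0126, 0.000217 and 0.0123), where 2.47% of all genes were (1.77% higher, 0.699% lower).

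Homozygous against heterozygous mice, 12 of the 62 members had an unadjusted p under 0.05, as did 2179 of all 10737 genes tested. After adjustment, 1 member was higher and 1 lower, against 2.20% of all genes tested (1.74% higher, 0.456% lower). The higher one was Eif5b (log2 fold change 0.79, SE 0.172, edgeR adjusted p = 0.0234), so this gene was called between each pair of genotypes. The lower one was Eif3k, a small peripheral eIF3 subunit, with 47.6, 40.0, 34.4 and 32.2 CPM in heterozygous and 26.2, 21.1, 20.6 and 22.6 CPM in homozygous libraries (-0.77, SE 0.197, edgeR adjusted p = 0.0409). Its wild-type libraries lay between, at 24.2, 28.5, 35.0 and 36.1 CPM, and overlapped those of both mutant groups. Groups did not overlap for 10 of the 62 members, against 9.48% of all genes. Without homozygous replicates 4 and 5 neither call was made (adjusted p = 0.214 for Eif5b and 0.313 for Eif3k), where 0.00882% of all genes were called. Adding the composition score to the fit also removed both calls (adjusted p = 0.405 and 0.522), where 0.00931% of all genes (1 gene, lower) were called. The Eif5b call was also lost without heterozygous replicate 1 (adjusted p = 0.0724) or 2 (0.111) or homozygous replicate 4 (0.0884) or 5 (0.0665). That of Eif3k was lost without wild-type replicate 2 (0.0536), any of heterozygous replicates 1 to 4 (0.128, 0.165, 0.0524 and 0.0663) or homozygous replicate 4 (0.155) or 5 (0.110).

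The start regions of Eif5b and Eif3a are shown because these members rose in both mutant groups. The lines give the 120 bases before the RefSeq start on build GRCm38.p6, 5′ to 3′ on the gene's strand, at chr1:37997890-37998009 (plus strand) for Eif5b and chr19:60790694-60790813 (minus strand) for Eif3a, with each CG in capitals.
Eif5b: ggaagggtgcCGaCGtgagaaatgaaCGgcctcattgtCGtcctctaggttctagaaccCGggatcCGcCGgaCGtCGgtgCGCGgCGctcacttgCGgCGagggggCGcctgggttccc
Eif3a: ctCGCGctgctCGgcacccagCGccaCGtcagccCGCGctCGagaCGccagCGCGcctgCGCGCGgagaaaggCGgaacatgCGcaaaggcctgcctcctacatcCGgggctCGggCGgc
The Eif5b stretch holds 15 CG steps at 66.7% GC and the Eif3a stretch 19 at 74.2% GC, as is common for genes used in all cells. In the 250 bases before the start, on either strand, 4 motifs were sought in 67 windows of 51 members and in 32851 windows of all genes. The E-box CACGTG, bound by MYC and USF proteins, was in 13 member windows (19.4%) against 6.02% of all windows. These belong to Eef2, Eef2k, Eif1b, Eif3f, Eif3k, Eif4a1, Eif4e, Eif4g1, Eif4h, Eif5a and Eif5a2, of which Eif3f is the only one called in homozygous mice against wild-type. The cAMP response element TGACGTCA was in none (1.55% of all windows), and the ATF4-type element TGATGNAAN was in 1.49% of member windows, that of Eef2k, against 3.44% of all. The endoplasmic reticulum stress element (ERSE), sought by its full letters, was in none, against 0.113% of all. A match of letters shows no binding.

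Other genes of the translation pathway were read from 7 lists chosen by function. None of their genes was called in heterozygous mice against wild-type by edgeR with all 12 libraries. An unadjusted p under 0.05 was found for 13 of 84, against 1520 of all 10737 genes tested. DESeq2 called Nemf and Abcf1 there (adjusted p = 0.0133 and 0.0325). Without homozygous replicates 4 and 5 in the edgeR fit, Nemf (log2 fold change 0.66, adjusted p = 0.0034) and Abcf1 (0.87, adjusted p = 0.0112) were called higher. Sesn2 (-1.26, adjusted p = 0.0301) and Rheb (-0.54, adjusted p = 0.0391), the latter named after its value was seen, were then called lower. In homozygous mice against wild-type (25.4% of all genes called), 3 of 15 mTORC1 and cap signalling genes were called. Rps6kb1, a ribosomal protein S6 kinase, rose from 58.4 ± 14.2 to 111 ± 24.8 CPM (SD, n = 4 each; log2 fold change 0.91, edgeR adjusted p = 0.000986). The sister kinase Rps6kb2 fell from 15.2 ± 2.69 to 4.88 ± 3.35 CPM (-1.45, adjusted p = 0.004), and Tsc2, an inhibitor of mTORC1, fell by 0.62 on the log2 scale (adjusted p = 0.014). The median of the list was 0.02. Neither fall was called without homozygous replicates 4 and 5 (adjusted p = 0.0593 and 0.130), while Rps6kb1 was at 0.64 (adjusted p = 0.0174). None of the 3 was called with the composition score in the fit, where Rps6kb1 was at 0.40 (adjusted p = 0.248).

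Among poly(A) binding and messenger RNA helicase genes, 2 of 13 were called in homozygous mice against wild-type, where 25.4% of all genes tested were. Ddx3x, a helicase that opens structured leaders, rose from 187 ± 39.3 to 285 ± 71.9 CPM (log2 fold change 0.59, edgeR adjusted p = 0.0103), and Paip2b, an inhibitor of poly(A)-binding protein, fell by 0.63 on the log2 scale (adjusted p = 0.0158). Neither was called without homozygous replicates 4 and 5 (adjusted p = 0.184 and 0.137). Ddx3x was also lost without homozygous replicate 4 alone (adjusted p = 0.0604), and Paip2b without wild-type replicate 3 (0.0691) or homozygous replicate 5 (0.0511).

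Recycling, rescue and ribosome quality control genes held the largest rise of the 7 lists. Nemf, which marks stalled nascent chains on the large subunit, went up from 72.5 ± 6.93 in wild-type to 226 ± 49.7 CPM in homozygous mice (log2 fold change 1.64, SE 0.161, edgeR adjusted p = 9.34e-07). Its homozygous libraries were above all of the other 8, and its value was 1.35 without homozygous replicates 4 and 5 (adjusted p = 1.13e-07) and 1.13 with the composition score (adjusted p = 2.58e-05). Abcf1, which works with eIF2, rose by 0.87 (SE 0.256, edgeR adjusted p = 0.0156), a call lost without wild-type replicate 1 (adjusted p = 0.0541), wild-type replicate 2 (0.0522) or homozygous replicate 1 (0.0607). Ltn1, the ubiquitin ligase that acts with Nemf, rose by 0.59 (SE 0.143, edgeR adjusted p = 0.00438) and was at 0.42 without homozygous replicates 4 and 5 (adjusted p = 0.0507). Of 14 genes tested in this list 3 rose and 2 fell, where 13.7% of all genes tested rose and 11.6% fell. The 2 that fell, Gtpbp1 (-1.01) and Gcn1l1 (-0.54), were named after their values were seen (edgeR adjusted p = 0.0170 and 0.0399). Neither was called without homozygous replicates 4 and 5 (-0.48 and -0.28, adjusted p = 0.187 and 0.360) or with the composition score in the fit (adjusted p = 0.998 and 0.929).

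All 5 called genes among the 20 cytosolic aminoacyl-tRNA synthetases, which charge tRNAs with amino acids, fell. Of all genes tested, 25.4% were called in this comparison (13.7% higher, 11.6% lower). The list's median log2 fold change was -0.29 against -0.03 over all genes. Farsa fell by 1.33, Yars by 0.60 and Wars by 0.58 on the log2 scale (edgeR adjusted p = 0.0170, 0.0193 and 0.0325), and Vars (-0.92) and Sars (-0.44), named after their values were seen, were the other two (adjusted p = 0.0462 and 0.0455). None of the 20 was called without homozygous replicates 4 and 5. Wars was also lost without any of wild-type replicates 2, 3 and 5 (adjusted p = 0.0753, 0.0554 and 0.0821) or homozygous replicates 4 and 5 one at a time (0.117 and 0.0893). Farsa and Yars were lost without wild-type replicate 3 (0.0814 and 0.110) or homozygous replicate 4 (0.0541 and 0.0648).

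Of 10 genes tested downstream of eIF2 phosphorylation, the integrated stress response list, 2 rose and 1 fell, with a median log2 fold change of -0.11. Among all genes tested, 13.7% rose and 11.6% fell. Psat1, an enzyme of serine synthesis, rose from 93.2 ± 13.3 in wild-type to 197 ± 29.3 CPM in homozygous mice (log2 fold change 1.06, SE 0.147, edgeR adjusted p = 2.64e-05) and was at 0.88 without homozygous replicates 4 and 5 (adjusted p = 0.000116). Vldlr rose by 0.60 (adjusted p = 0.0158) but was at 0.16 without those libraries (adjusted p = 0.531), and without replicate 4 or 5 alone its adjusted p was 0.0777 and 0.0596. Sesn2 fell by 0.92 on the log2 scale (edgeR adjusted p = 0.0354). DESeq2 did not call it (adjusted p = 0.0789), nor did the fits without wild-type replicate 1 (0.0557), 3 (0.142) or 5 (0.0610) or homozygous replicate 4 (0.0919) or 5 (0.0838). Without homozygous replicates 4 and 5 together, Sesn2 was at -0.72 (edgeR adjusted p = 0.233). The transcription factor genes Atf4 and Ddit3, named after their values were seen, had log2 fold changes of 0.13 and 0.22 (edgeR adjusted p = 0.590 and 0.587). Asns, which makes asparagine and was named after its values were seen, was not called with all libraries (log2 fold change -0.30, edgeR adjusted p = 0.177) but was called lower without homozygous replicates 4 and 5 (-0.57, adjusted p = 0.0223) and with the composition score in the fit (-0.67, adjusted p = 0.0414). Mtif2, the mitochondrial initiation factor, was the only 1 of 7 mitochondrial factors called (0.87, SE 0.167, edgeR adjusted p = 0.00069), and its call was lost with the composition score (0.57, adjusted p = 0.101). None of 5 hypusine and diphthamide enzymes was called.

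**Figure D4:**
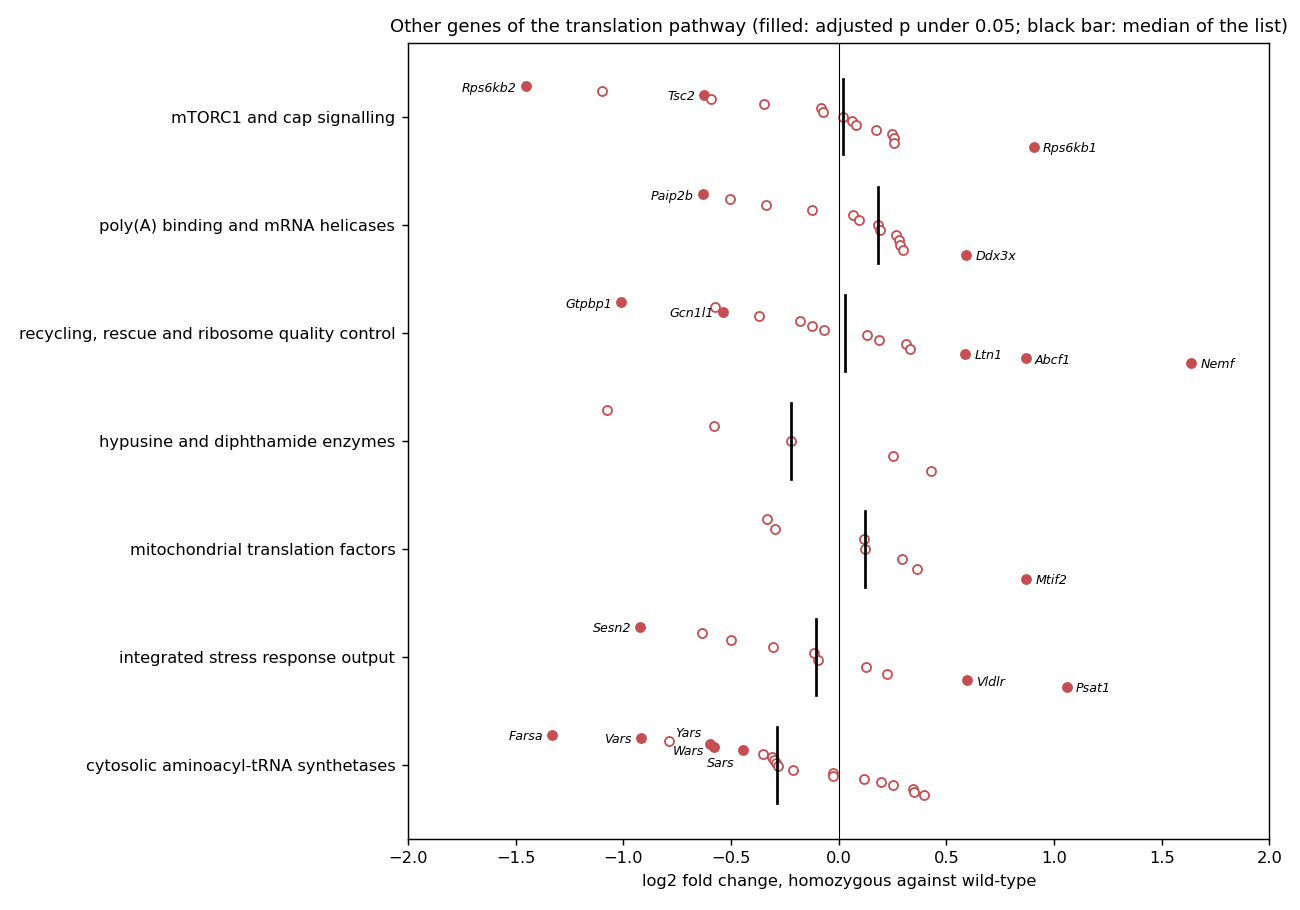
Change from wild-type to homozygous mice on the log2 scale (x axis) for the tested genes of 7 other translation pathway lists (y axis); filled points passed an adjusted p of 0.05 and black bars are the medians. Nemf (1.64) lies farthest right and Rps6kb2 (-1.45) farthest left, and all 5 filled synthetase genes lie to the left of 0.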

How the data were processed

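RNA of 12 hypothalami (50 ng) was amplified (NuGEN Ovation RNA-Seq System V2), then sequenced on SOLiD 5500xl as paired reads of 75 and 35 bases, per the labels' protocols. The authors deposited 1 table of raw counts per gene symbol. The build was mm10 per the submitters' processing notes, while aligner, counting tool, annotation and use of strand were not given in the sources used here. Lines with repeated symbols (955) held 0.0608% of counts. A column was taken for a sample where its name matched the label, and the column numbered 5 of the homozygous group was assigned to that group only.

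Differences in counts were modelled by edgeR 4.0.16 under R 4.3.3 (TMM scaling, filterByExpr, quasi-likelihood test, all 12 libraries, 9 residual degrees of freedom, Benjamini-Hochberg adjustment over 10737 genes), with a common biological coefficient of variation of 0.148. The method was tested on simulated data. The SE was taken as the log2 fold change over the root of its F statistic. Alternatives used limma 3.58.1, DESeq2 1.42.0, other scalings and filters, a replicate block, a composition covariate and omitted libraries. The 11-library fit without a replicate term was chosen after seeing the data.

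Transcripts came from GENCODE M21 (all 67 members matched, 5 by older symbols), promoters from RefSeq GRCm38.p6, and pseudogene copies from blastn 2.17.0 at 90% identity. The members and all gene lists were chosen with earlier results of these data known. Members were named where called in any contrast, where among the 6 most abundant uncalled ones, in roles of at most 3 tested genes or in listed paralog pairs, and other genes up to 3 per list by smallest p. Further members given as ends of a range or to complete a complex were chosen after their values were seen. Of the other marker lists, microglia (4 genes tested), endothelium (4), choroid plexus (1) and telencephalon (2) had no gene called between homozygous and wild-type mice. No pituitary marker had enough counts to be tested. Astrocyte (6 genes tested) and hypothalamus (8) had 1 higher and 1 lower each, thalamus (4) had 1 higher and blood (1) had 1 lower. Between homozygous and wild-type mice, 13.7% of all genes tested were called higher and 11.6% lower. Thalamus markers (4 genes) summed to 166 to 219 CPM in wild-type, 206 to 371 in heterozygous and 209 to 353 in homozygous libraries. The part of this shift in the members' changes was not tested.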

Additional observations from a re-analysis of the deposited data

Results flagged for a closer look

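Eif4e3, which encodes a cap-binding protein related to eIF4E, had 1 wild-type library apart from the others. Wild-type replicate 1 was at 30.8 CPM, and the other 3 were at 42.3, 43.7 and 43.8 CPM. Its gap to the nearest library was 0.885 of the range, above Dixon's 95% critical value for 4 samples. Of the 114 groups checked (38 genes in 3 genotypes) this was the only 1, and chance alone marks about 1 in 20 groups.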

How the results depend on the processing

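All 15 members called between homozygous and wild-type mice stayed called with RLE scaling, with DESeq2 and with a filter at 1 CPM in 4 libraries. The number called higher (11) was 7 without homozygous replicates 4 and 5 and 5 with the composition covariate, and the number called lower (4) was 7 with upper-quartile scaling and 0 with the covariate. Leaving out 1 library at a time gave 8 to 12 higher and 4 to 5 lower. With the covariate Eif1a turned from 0.76 to -0.0876 (edgeR adjusted p = 0.880). The cause was not tested. In heterozygous against wild-type mice, the number called higher (2) was 1 with upper-quartile scaling and 0 to 3 when 1 library was left out. In homozygous against heterozygous mice, the number higher (1) was 5 without a filter, 2 with DESeq2 and 0 with only the 2 genotypes, with 11 libraries, with the covariate or without homozygous replicates 4 and 5. It ran from 0 to 4 when 1 library was left out. The number lower (1) was 0 with limma-voom, with only the 2 genotypes, with the replicate block, with 11 libraries, with the covariate or without homozygous replicates 4 and 5, and 0 to 2 when 1 library was left out.

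The replicate block, fitted on 11 libraries since the homozygous library 5 has no numbered label, gave 6 members higher and 2 lower between homozygous and wild-type mice, and 7 of the 15 stayed called. Those lost were Eef1a2, Eif1a, Eif3f, Eif4enif1, Eif5, Eif1ax, Eif2s1 and Eif4g3. The last 3 stayed called without homozygous replicates 4 and 5 but not with the block (edgeR adjusted p = 0.0587, 0.122 and 0.0622). The same 11 libraries without the block gave 8 higher and 4 lower. Over 8 pairs of samples with the same number, the r of their deviations ran from -0.26 to 0.33, with 1 pair over 0.1. That pair was heterozygous and homozygous replicate 2, while wild-type replicate 1 and homozygous replicate 4, with different numbers, had 0.24. With so few pairs, these values cannot decide whether the number pairs the mice. At 979394 to 2330872 counts per library, genes such as Eif2ak2 (336 counts over 12 libraries) were measured with limited precision, and the 5 untested members, with 0 to 86 counts over the 12 libraries, give no comparison.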
